A study of Caenorhabditis elegans with 6 samples.

Results

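The fatty acid desaturases of the nematode Caenorhabditis elegans are encoded by 7 genes, fat-1 to fat-7. They were located by WormBase symbol among the 46904 gene IDs of the count tables, and each symbol matched 1 ID. All 7 passed the filter on low counts. RNA came from whole bodies of N2, the wild-type laboratory strain, harvested as hermaphrodites on day 3 of adulthood. Synchronized animals of the last larval stage had been kept at 25 °C for 72 h on NGM agar seeded with OP50 bacteria. In the control group the agar held 0 mM caffeine and in the caffeine group it held 10 mM. Each group had 3 libraries, each from about 300 animals and described in the protocol as a biological replicate. Caffeine is a methylxanthine, and the study asked how it acts on lipid breakdown in lysosomes and on lifespan.

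Desaturases place double bonds in fatty acid chains that are bound to coenzyme A or to phospholipids. In C. elegans the chain starts with saturated fatty acids from the diet or from synthesis. FAT-5 acts on palmitate and FAT-6 and FAT-7 act mainly on stearate, each adding a double bond at the delta-9 position to give monounsaturated palmitoleic and oleic acid. FAT-2 adds the delta-12 bond that turns oleic into linoleic acid, a step that mammals lack. FAT-1 turns omega-6 into omega-3 fatty acids, FAT-3 adds the delta-6 bond, and after elongation FAT-4 adds the delta-5 bond that yields arachidonic and eicosapentaenoic acid. The worm therefore makes all its polyunsaturated fatty acids itself, and these serve as membrane components and as precursors of signalling lipids.

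Genes of this chain changed in both directions with caffeine, although the delta-9 genes summed were not called. All 4 genes of polyunsaturated fatty acid synthesis, fat-1, fat-2, fat-3 and fat-4, rose. The delta-9 gene fat-7 fell 5.65-fold, while the delta-9 genes fat-5 and fat-6 were not called. Thus 4 of 7 members (57.1%) were higher and 1 of 7 (14.3%) was lower, where 13.8% of the 14200 tested genes were called higher and 10.5% lower. A gene was called at a Benjamini-Hochberg adjusted p under 0.05 in the quasi-likelihood test of edgeR across all tested genes. In either direction 24.3% of tested genes were called. The median log2 fold change was 0.51 over the members and -0.00068 over all tested genes. In 5 of 7 members (71.4%) the CPM values of the 2 groups did not overlap, where 44.3% of tested genes showed no overlap.

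The libraries summed to between 40417780 and 40746556 expected counts. Expected counts are estimates that split a read with several possible origins among the genes it could come from. Every value of the 7 members was a whole number in all 6 libraries, including those of fat-6 and fat-7, which are closely similar in sequence. Levels are given in CPM, which puts libraries of different depth on 1 scale, here with TMM factors. The RNA came from whole animals, so a change in a gene's RNA per cell cannot be told apart from a change in the number of cells that express it. Intestine, epidermis, muscle, neuron, germline and embryo markers were all detected, and no matched marker was at 0 in every library. Replicates were separate samples, and the labels gave no batch or date.

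**Figure D1:**
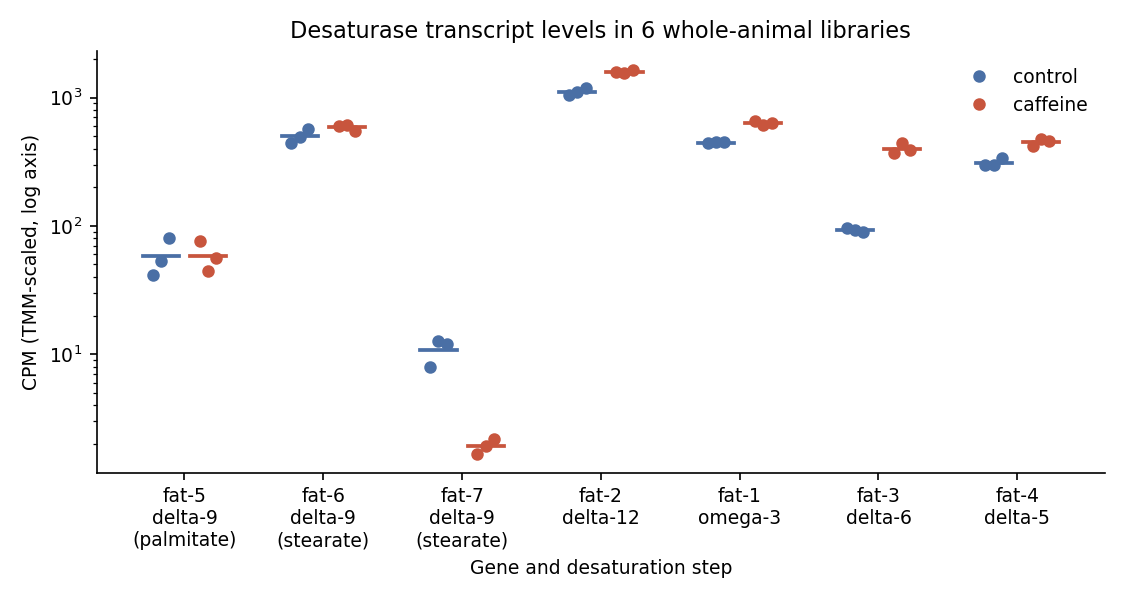
Level of each desaturase gene in CPM on a log axis, ordered by step, with 1 point per library and a bar at the mean of the 3 libraries of a group. The caffeine libraries lie above all controls for fat-1 to fat-4 and below all controls for fat-7, while fat-5 and fat-6 overlap.

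The first step of the pathway was examined in fat-5, fat-6 and fat-7, which hold the delta-9 activity. fat-7 (WBGene00001399; WBcel235 chromosome V, 7151353 to 7153146, minus strand, protein coding) was counted 320, 505 and 478 times in controls 1, 2 and 3. In caffeine libraries 1, 2 and 3 it was counted 65, 83 and 89 times. In CPM these were 7.93, 12.7 and 11.9 against 1.68, 1.91 and 2.16. Every caffeine library lay far below the lowest control, with no overlap between the groups. The control mean was 10.9 ± 2.57 CPM and the caffeine mean 1.92 ± 0.242 (SD, n = 3 each). On the log2 scale the fold change was -2.50 (SE 0.20, 95% interval -2.97 to -2.03), and edgeR gave an adjusted p of 0.000131. Among the genes called lower, 45 fell further. Counting error was small against this change, since the exact Poisson 95% interval of the highest caffeine count ran from 71.5 to 109.5 and that of the lowest control count from 285.9 to 357.05. Such intervals cover counting error only.

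fat-6 (WBGene00001398; chromosome IV, 11913692 to 11915687, minus strand), which makes oleic acid from the same substrate as fat-7, was not called. Its levels were 442, 493 and 573 CPM in control and 595, 613 and 548 with caffeine. The third control lay above the third caffeine library, so the groups overlapped. Its log2 fold change was 0.22 (SE 0.10, 95% interval -0.01 to 0.45; edgeR adjusted p 0.140). These data therefore leave room for a rise of up to 1.36-fold.

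fat-5 (WBGene00001397; chromosome V, 17725004 to 17726818, plus strand), the palmitate desaturase, varied most between replicates. Its levels were 41.2, 53.2 and 81.05 CPM in control and 75.7, 44.2 and 55.9 with caffeine. The highest and the lowest of the 6 values were both controls. Its log2 fold change was 0.0022 with a wide 95% interval, from -0.59 to 0.60 (edgeR adjusted p 0.996). A change of up to 1.51-fold in either direction is within that interval. On the opposite strand fat-5 is overlapped by 2 genes. The potassium channel gene twk-42 had between 42 and 54 counts and the non-coding W06D12.8 was at 0 in all libraries, against at least 1663 counts for fat-5.

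Because FAT-6 and FAT-7 form oleic acid from the same substrate, their counts were also added. fat-7 made up 1.76%, 2.51% and 2.04% of this sum in the controls and 0.281%, 0.311% and 0.393% with caffeine. The groups did not overlap, with p = 0.1 in an exact two-sided permutation test (n = 3 per group), where 3 against 3 libraries cannot go lower. fat-6 thus supplied nearly all of the sum in both groups. Refitted as a single gene, the sum was at 0.19 on the log2 scale (SE 0.10, 95% interval -0.04 to 0.42; edgeR adjusted p 0.186). With fat-5 added, the value for all delta-9 desaturases together was 0.17 (SE 0.11, 95% interval -0.08 to 0.43; edgeR adjusted p 0.267). The fall of fat-7 was large in proportion but did not appear as a fall of delta-9 desaturase RNA as a whole.

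The step from mono- to polyunsaturated fatty acids is that of fat-2 (WBGene00001394; chromosome IV, 13323873 to 13326395, plus strand), the delta-12 desaturase. Its levels were 1056, 1107 and 1180 CPM in control and 1579, 1544 and 1643 with caffeine. All caffeine libraries lay above all controls. Its log2 fold change was 0.51 (SE 0.07), a 1.43-fold rise with a 95% interval from 1.27 to 1.61, at an adjusted p of 0.00223 (edgeR).

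fat-1 (WBGene00001393; chromosome IV, 13315644 to 13318811, plus strand) encodes the omega-3 desaturase. It was the steadiest member in controls, at 439, 447 and 449 CPM, and had 654, 617 and 629 with caffeine. The groups were far apart relative to their spread. This was a change of 0.51 on the log2 scale (SE 0.06), a 1.42-fold rise with a 95% interval from 1.298 to 1.56, at an adjusted p of 0.000644 (edgeR).

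fat-1 and fat-2 moved by almost the same amount. Within each library, the ratio of fat-1 to fat-2 counts per kilobase of exon was 0.369, 0.358 and 0.337 in control and 0.367, 0.354 and 0.339 with caffeine. The 2 sets of ratios overlapped over nearly their whole range, with means of 0.355 ± 0.0161 and 0.353 ± 0.0139 (mean ± SD, n = 3 per group). Both genes lie on the plus strand of chromosome IV, 5061 bp apart, with no protein-coding gene between them.

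The largest rise among the members was that of fat-3 (WBGene00001395; chromosome IV, 9803023 to 9806119, plus strand), the delta-6 desaturase. Control libraries held 3856, 3687 and 3613 of its counts, and caffeine libraries 14332, 19100 and 16002. These are 95.5, 92.8 and 90.3 CPM against 369, 441 and 388. The lowest caffeine library was several times as high as the highest control. Means were 92.9 ± 2.62 CPM in control and 399 ± 36.9 with caffeine (SD, n = 3 each). The change of 2.10 on the log2 scale (SE 0.08) was a 4.30-fold rise with a 95% interval from 3.81 to 4.85, at an adjusted p of 3.21e-06 (edgeR). Of all 14200 tested genes, 6 had a smaller p. Its size was less exceptional, since 213 of the 1962 genes called higher rose further.

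fat-4 (WBGene00001396; chromosome IV, 9799429 to 9802226, plus strand), the delta-5 desaturase, closes the pathway. Its levels were 298, 297 and 338 CPM in control and 420, 479 and 457 with caffeine, without overlap. Its change of 0.54 on the log2 scale (SE 0.08) was a 1.45-fold rise with a 95% interval from 1.29 to 1.64, at an adjusted p of 0.00202 (edgeR). fat-4 therefore changed by about as much as fat-1 and fat-2, and fat-3 by more than all of them.

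fat-4 and fat-3 are neighbours on the same strand, with fat-4 first and 796 bp between them. The ratio of fat-3 to fat-4 counts per kilobase was 0.331, 0.323 and 0.275 in control and 0.907, 0.9499 and 0.877 with caffeine. In controls fat-3 thus stood well below its neighbour in every library, and with caffeine it came close to it. The difference of the log2 ratio was 1.56, with p = 0.1 in the exact two-sided permutation test (n = 3 per group), again the smallest possible.

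**Figure D2:**
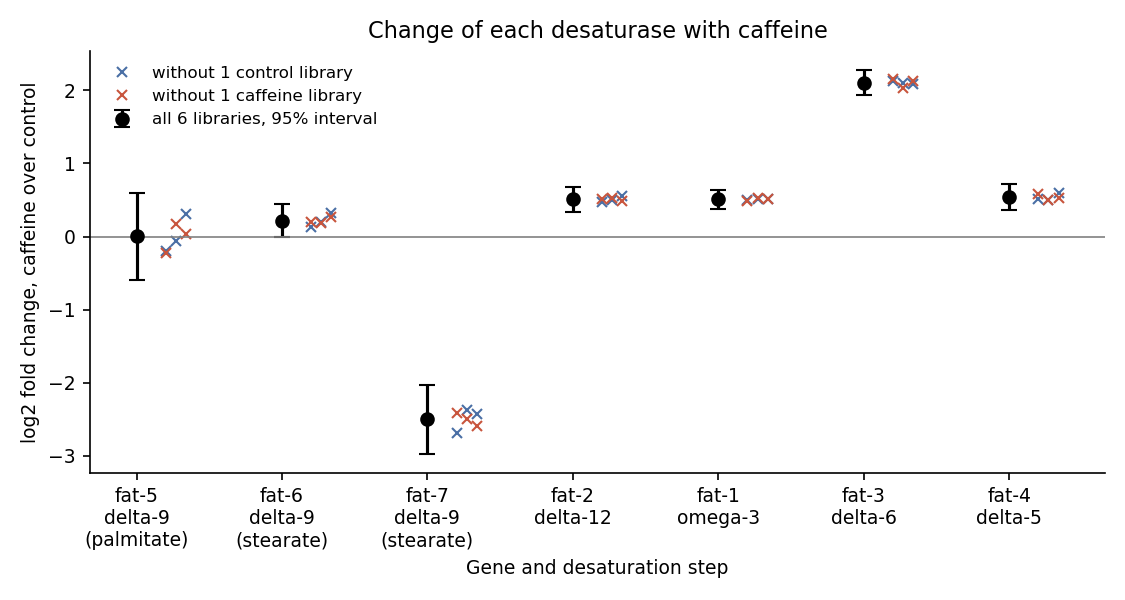
Log2 fold change of each desaturase, caffeine over control, with its 95% interval (black) and the value after leaving out 1 control library (blue crosses) or 1 caffeine library (red crosses). fat-3 stays near 2.10 and fat-7 near -2.50 in every such fit, and fat-5 lies on either side of 0.

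Differences between the members were also read as ratios within libraries, which need no scaling between libraries. For the 21 pairs of members, the log2 ratios of the 2 groups did not overlap in 14 and overlapped in 7. The pairs come from 7 genes and are not independent, and no share was computed for pairs of other genes. Of single tested genes, 44.3% showed no overlap. All 14 pairs had p = 0.1 in the exact two-sided permutation test (n = 3 per group). Non-overlap of 3 against 3 libraries fixes this value, which is 0.15 after adjustment over the 21 pairs. The 6 pairs with fat-7 and the 6 with fat-3 share a pair and make up 11 of the 14. The other three set fat-6 against fat-1, fat-2 and fat-4, by 0.28, 0.29 and 0.31 on the log2 scale. The pairs among fat-1, fat-2 and fat-4 differed by at most 0.033 in size between the groups, and the other pairs that overlapped all involved fat-5.

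Levels of different genes were compared per length, as CPM per kilobase of exon. In controls the order was fat-2 at 888 ± 49.5, fat-6 at 431 ± 56.7, fat-1 at 314 ± 3.61, fat-4 at 202 ± 15.4, fat-3 at 62.2 ± 1.75, fat-5 at 52.97 ± 18.5 and fat-7 at 9.65 ± 2.28 (mean ± SD, n = 3). The values of fat-3 and fat-5 overlapped, and no other neighbours in this order did. With caffeine the order of the means was the same. They were 1266 ± 39.9 for fat-2, 502 ± 28.9 for fat-6, 447 ± 13.4 for fat-1, 294 ± 19.2 for fat-4, 268 ± 24.7 for fat-3, 53.1 ± 14.4 for fat-5 and 1.70 ± 0.215 for fat-7. Here fat-4 and fat-3 overlapped, and fat-3 stood clear of fat-5. Among all tested genes ranked per kilobase, fat-3 moved from place 2660 to place 380 and fat-7 from place 6880 to place 10127.

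The makeup of the desaturase pool followed from these changes. Per kilobase, fat-3 made up 3.49%, 3.22% and 2.86% of the 7 members in control and 8.78%, 10.4% and 9.19% with caffeine. The 3 delta-9 genes together went from 25.1% ± 2.08 to 19.7% ± 1.101 (mean ± SD, n = 3 per group), with no overlap and p = 0.1 by the exact two-sided permutation test. fat-2 remained the largest item, at 45.3% ± 0.741 and 44.7% ± 1.45, and overlapped between the groups. The ratio of fat-2 to the 3 delta-9 genes was 1.99, 1.83 and 1.63 in control and 2.17, 2.17 and 2.50 with caffeine. All 7 members took 0.237%, 0.245% and 0.267% of all counts in control and 0.355%, 0.399% and 0.379% with caffeine, so the pool as a whole was larger in each caffeine library. The 3 delta-9 genes took 0.0563% ± 0.00840 of all counts in control and 0.0656% ± 0.00437 with caffeine (mean ± SD, n = 3 per group). These values overlapped, with p = 0.3 by the exact two-sided permutation test. The delta-9 share of the 7 members thus fell without a fall in the delta-9 share of all counts.

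**Figure D3:**
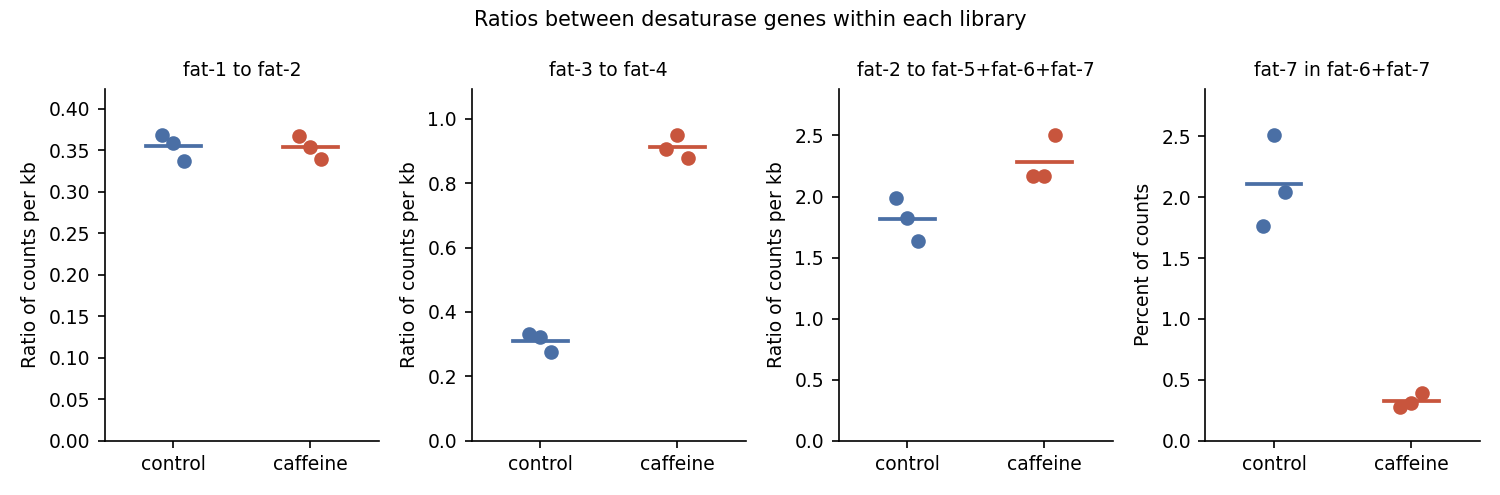
Ratios between desaturase genes within each library, with 1 point per library and a bar at the group mean, on axes that start at 0. The fat-1 to fat-2 ratio is near 0.35 in both groups, the fat-3 to fat-4 ratio goes from 0.310 to 0.911, the ratio of fat-2 to the delta-9 genes from 1.82 to 2.28, and the share of fat-7 in fat-6 plus fat-7 from 2.11% to 0.328%.

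Desaturases draw electrons from cytochrome b5, which is recharged by cytochrome b5 reductase. Of 5 genes listed for this supply, 4 were higher and 1 was not called, with a median log2 fold change of 0.39. Among all tested genes 13.8% were called higher and 24.3% in either direction. The count higher in this list fell to 2 when any single control library or caffeine library 3 was left out. It was also 2 with a replicate block. The cytochrome b5 gene cytb-5.1 had the largest of these rises, with 38.6 ± 3.74 CPM in control and 124 ± 10.3 with caffeine (SD, n = 3 each). Its log2 fold change was 1.69 (SE 0.09; edgeR adjusted p 1.75e-05). Its partner cytb-5.2 rose from 61.998 ± 1.68 to 81.5 ± 7.40, or 0.39 on the log2 scale (edgeR adjusted p 0.00629). The reductase genes hpo-19 and T05H4.4 were higher by 0.21 and 0.98 on the log2 scale. Leaving out any control library or caffeine library 3 ended the call of hpo-19, with adjusted p of up to 0.0920 (edgeR). Leaving out any library other than caffeine library 1 ended that of T05H4.4, with adjusted p of up to 0.124, and DESeq2 gave it 0.0534. emb-8, the reductase that serves cytochromes P450, was not called, at 0.02 (edgeR adjusted p 0.811).

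Synthesis and elongation of the chains supply and lengthen the substrates. Of 7 genes of fatty acid synthesis, edgeR called 0, limma-voom called 0 and DESeq2 called 1, and 1 had an unadjusted p under 0.05 in edgeR. That gene was fasn-1 (fatty acid synthase), at 0.20 with an adjusted p of 0.0528 in edgeR and 0.0407 in DESeq2. edgeR also called it with upper-quartile scaling, with library totals and with a minimum mean of 50 counts, at adjusted p of 0.0327, 0.0486 and 0.0398. pod-2 (acetyl-CoA carboxylase) was at -0.10, and was called lower at -0.29 without caffeine library 1 (edgeR adjusted p 0.0220). Of 11 tested genes of the elongation cycle, 2 were higher and 9 were not called, with a median log2 fold change of 0.11. This share of 18.2% called compares with 24.3% of all tested genes. Upper-quartile scaling, library totals, a minimum mean of 50 counts or leaving out caffeine library 2 brought the count higher to 4, adding let-767 and hpo-8 (genes of the elongation cycle). elo-1, the elongase that acts between FAT-3 and FAT-4, had 236 ± 3.53 CPM in control and 228 ± 2.97 with caffeine (SD, n = 3 each), which is -0.05 on the log2 scale (95% interval -0.16 to 0.06). elo-2, which lengthens palmitate, was at -0.23 with an adjusted p of 0.423 (edgeR). elo-3 was at -0.18 with an adjusted p of 0.0504 (edgeR). It was called lower in DESeq2 (adjusted p 0.0258), with median-of-ratios scaling, with a minimum mean of 50 counts and without caffeine library 1. elo-6 rose at 0.83. elo-9 rose at 0.92, from 2.84 to 5.36 CPM, and was at an edgeR adjusted p of 0.0507 without control library 2. elo-6 takes part in making branched-chain fatty acids, which do not pass through the desaturases.

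Of 17 tested genes listed as direct or indirect regulators of the delta-9 genes or as partners of such regulators, 4 were lower and 13 were not called. Their median log2 fold change was -0.12. This share of 23.5% called is close to the 24.3% of all tested genes. The count lower was 1 without control library 2 or caffeine library 3, 2 without control library 1 and 6 without caffeine library 1. The nuclear receptor gene nhr-49, a main activator of fat-5, fat-6 and fat-7, had 163 ± 6.73 CPM in control and 157 ± 2.91 with caffeine (mean ± SD, n = 3 per group), at a log2 fold change of -0.06 (95% interval -0.18 to 0.06). Its partners nhr-80, nhr-13 and nhr-66 were at 0.09, -0.17 and 0.02, and sbp-1, the sterol-response factor, was at -0.02. None of these was called, although sbp-1 was called lower at -0.20 without caffeine library 1 (edgeR adjusted p 0.0433). mdt-15, the Mediator subunit that works with NHR-49 and SBP-1, was lower at -0.36, skn-1 at -0.31 and nhr-86 at -0.30. Their calls ended when single libraries were left out, with adjusted p of up to 0.0548, 0.0756 and 0.0687 (edgeR). For mdt-15 these were control library 2 and caffeine library 3. For skn-1 they were each control and caffeine library 3, and for nhr-86 controls 1 and 2 and caffeine libraries 2 and 3. pqm-1, a zinc finger factor, fell at -0.99 (SE 0.10) and kept its call whichever library was left out. RNA levels of regulators do not give their activity.

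**Figure D4:**
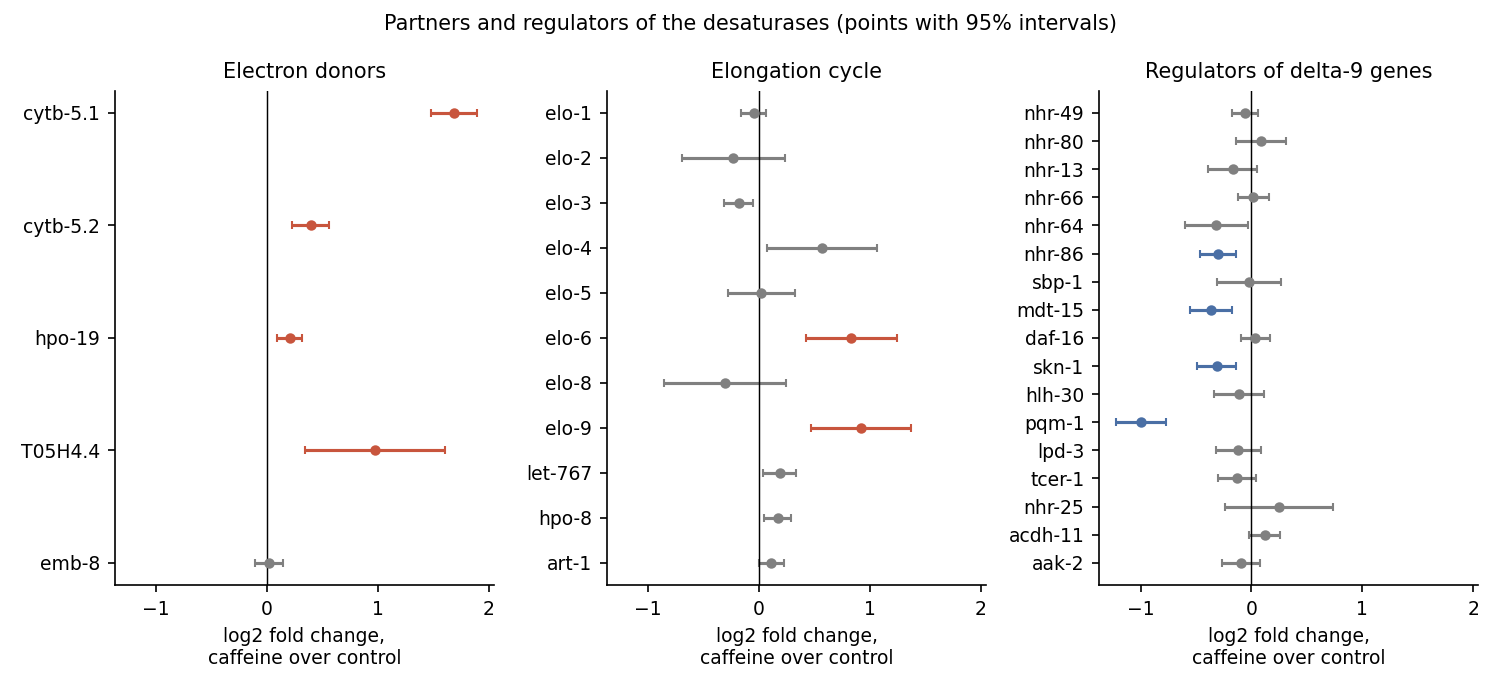
Log2 fold change, caffeine over control, with 95% intervals for each tested gene of 3 lists. Red marks genes called higher and blue genes called lower at an adjusted p under 0.05, and grey marks genes not called, some of whose unadjusted intervals lie clear of 0.

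Membrane fluidity in the worm is kept by paqr-2 and iglr-2, whose products act through the delta-9 desaturases. Of 9 genes on this list, which shares nhr-49 and mdt-15 with the regulators, 1 was higher and 2 lower. Their median log2 fold change was -0.08, and 33.3% were called, against 24.3% of all tested genes. paqr-2 was at -0.01 and iglr-2 at 0.06, and neither was called. fld-1, another gene of membrane fluidity, fell at -0.51 with an adjusted p of 0.0111 (edgeR). The gene called higher was paqr-3 at 0.99, on a level of about 1 CPM, and it lost its call without any library other than caffeine library 1 (edgeR adjusted p of up to 0.0936).

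Genes linked to NHR-49 or to fasting and fat oxidation moved in both directions. Of 12 tested, 5 were higher and 2 lower, with a median log2 fold change of 0.60. That is 58.3% called, against 24.3% of all tested genes. acdh-1 (an acyl-CoA dehydrogenase) and lbp-8 (a lysosomal fatty acid binding protein) rose at 4.10 (SE 0.56) and 4.06. acdh-1 had 77, 97 and 290 counts in controls 1, 2 and 3 and 2094, 1579 and 4446 in caffeine libraries 1, 2 and 3, and its log2 fold change ran from 3.55 to 4.92 when 1 library was left out, the highest value being that without control library 3. cpt-5 rose at 1.87 and cpt-3 fell at -2.19, although both belong to the carnitine palmitoyltransferase family. The NHR-49 target acs-2 was not called, at 0.57 on a level near 1 CPM.

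Downstream of the desaturases, fatty acids are placed into phospholipids or made into signals. Of 18 tested acyl transfer genes, 2 were higher and 1 lower, with a median log2 fold change of -0.02, or 0.03 with library totals. In this list 16.7% were called, against 24.3% of all tested genes. mboa-2 and acl-6 rose at 0.29 and 0.21, and the phosphatidate phosphatase gene lpin-1 fell at -0.44. acl-6 lost its call without any library other than caffeine library 1 (edgeR adjusted p of up to 0.102). Of 14 genes of S-adenosylmethionine and phosphatidylcholine synthesis, 4 were higher and 2 lower, with a median of 0.06. Here 42.9% were called. The count higher fell to 2, pmt-1 and pmt-2, without control library 1, control library 2, caffeine library 1 or caffeine library 3. pmt-1, a phosphoethanolamine methyltransferase, rose at 0.98, with 195 ± 9.67 CPM in control and 384 ± 24.9 with caffeine (SD, n = 3 each), and pmt-2 rose at 0.59. Of the listed choline kinase genes, ckb-2 was lower at -0.59 (SE 0.08, edgeR adjusted p 0.00160). The genes cka-1, ckb-1 and ckb-4 were not called, at 0.09, 0.30 and 0.13. cka-2 was higher at 0.71, on a level of 0.982 ± 0.131 CPM in control and 1.61 ± 0.0780 with caffeine (SD, n = 3 each). cka-2 lost its call whichever library was left out (edgeR adjusted p of up to 0.125) and in DESeq2 (adjusted p 0.0589).

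Among 9 tested cytochrome P450 and epoxide hydrolase genes listed for signals derived from polyunsaturated fatty acids, 4 were higher and 1 lower. Their median log2 fold change was 0.30. This was 55.6% called, against 24.3% of all tested genes. The cytochrome P450 genes cyp-13A12 and cyp-29A3 rose at 2.22 and 2.07, both from under 2 CPM in control, and cyp-33C8 fell at -1.28. cyp-13A12 had 2, 5 and 6 counts in controls 1, 2 and 3 and 18.68, 26 and 19.43 in caffeine libraries 1, 2 and 3. ceeh-1, an epoxide hydrolase, rose at 1.05, with 14.3 ± 3.38 CPM in control and 29.7 ± 4.12 with caffeine (SD, n = 3 each). Of the related sphingolipid desaturase genes, ttm-5 fell at -0.45 (edgeR adjusted p 0.0117, or 0.0576 without control library 2) and F33D4.4 was not called, at 0.21.

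Tissue markers differed in how far they moved with the groups. The summed levels of the muscle, epidermis, neuron and embryo markers did not overlap between the groups, and those of the intestine, germline and sperm markers did. Among single tested genes 44.3% showed no overlap, and no such share was computed for sums of genes. Abundant genes weigh most in such sums. The intestine sums include asp-1, at 934 CPM in control and 1198 with caffeine, and the epidermis sums include col-19, at 42.9 and 93.1. These were the only genes of their lists called higher. Of 10 intestine markers, 1 was higher and 5 lower, with a median log2 fold change of -0.21, and their summed level ran from 2248 to 2636 CPM in control and from 2149 to 2441 with caffeine. The intestine is the main site of fat-7 expression. There pept-1 and act-5 fell at -1.15 and -1.12, while ges-1 and ifb-2 were at -0.03 and -0.04. Of 8 muscle and pharynx markers, 6 were higher and 2 not called, with sums of 363 to 407 CPM in control and 469 to 605 with caffeine. That count was 3 without control library 3, where myo-3, tnt-4 and tnc-2 lost their calls, and 4 or 5 when any other single library was left out. Of 7 tested epidermis markers, 1 was higher and 1 lower, with sums of 139.6 to 170.2 and 189 to 206. Their median log2 fold change was 5.4e-05. Of 8 neuron markers, 3 were higher and 1 lower (230.45 to 242 against 248 to 250.1). Without control library 2, caffeine library 2 or caffeine library 3, ric-4 and snt-1 lost their calls (edgeR adjusted p of up to 0.0755) and 1 was higher. Of 10 germline markers, 1 was lower and 9 not called (15364 to 16516 against 12763 to 17003), and of 7 tested embryo markers 1 moved each way (203 to 213 against 189.7 to 200.4). Sperm markers, with 1 of 6 tested genes lower, summed to 3.02 to 16.7 CPM in control and 2.28 to 5.70 with caffeine. The sperm gene called, gsp-4, was not called in limma-voom (adjusted p 0.0826) or without control library 1, control library 2, caffeine library 2 or caffeine library 3 (edgeR adjusted p of up to 0.176), and 4 sperm genes were called lower without caffeine library 1. The intestine count lower was 3 without control library 2 or caffeine library 2, and asp-1, the intestine gene called higher, kept its call only without control library 3. The germline count lower was 5 without caffeine library 1 and 0 when any other single library was left out, while on all 6 libraries limma-voom called 1 and DESeq2 called 2. The epidermis gene called lower, nhr-23, kept its call only without caffeine library 1 among these fits, and the embryo gene called lower, tbx-37, only without control library 3 or caffeine library 3. The part of these differences in the desaturase values was not tested.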

How the data were processed

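Per the labels, paired-end stranded libraries were prepared from polyadenylated RNA of whole animals. The authors deposited expected counts per WormBase gene, unscaled, per the file headers. STAR 2.7.0e, RSEM 1.3.1 and the builds WBcel235 and ce11 are named in the submitters' processing notes. The annotation release and strand setting are not given in the sources used here. Symbols came from a table of gene names and matched 44017 of 46904 IDs. Coordinates and exon lengths came from Ensembl release 115 of WBcel235.

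Expected counts were rounded and filtered with filterByExpr (minimum count 10, minimum total 15). The contrast of caffeine against control was tested with edgeR 4.0.16 (quasi-likelihood, R 4.3.3) on all 6 libraries with TMM factors and no covariate, adjusted by Benjamini-Hochberg over 14200 genes. SE is the log2 fold change divided by the square root of F. Alternatives used DESeq2 1.42.0, limma 3.58.1, other scalings and filters, a replicate block, and each library left out. The p-values of edgeR set the difference between the groups against the spread between libraries within a group.

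The members and lists were chosen with earlier results of these data known. The rule for named genes takes all members, any gene of the synthesis, elongation, electron, regulator and fluidity lists, and from other lists the called genes with the 4 largest changes and the smallest adjusted p. Uncalled genes and markers outside it were named after their values were seen. The listed symbols acl-10 and bus-8 matched no ID.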

Additional observations from a re-analysis of the deposited data

How the results depend on the processing

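The 7 members kept their direction of call and their side of the threshold under all 14 alternatives, with 4 called higher and 1 lower in each. Leaving out 1 library gave log2 fold changes of 2.03 to 2.15 for fat-3, -2.68 to -2.37 for fat-7, 0.48 to 0.53 for fat-1, 0.47 to 0.55 for fat-2 and 0.50 to 0.60 for fat-4. fat-6, never called, ran from 0.13 to 0.32, with adjusted p between 0.0518 and 0.377 (edgeR). fat-5, also never called, ran from -0.23 to 0.31. Leaving out 1 library gave 1209 to 2264 genes called higher and 698 to 2512 called lower. The sum of fat-6 and fat-7 ran from 0.10 to 0.29, that of the delta-9 genes from 0.07 to 0.29, and the difference in the fat-7 share from -1.95 to -1.57 percentage points. Other scalings moved the median of all genes to at most 0.042. No pairing by replicate number was evident: deviations of same-numbered libraries correlated at -0.18, -0.16 and 0.25, and those of caffeine 1 and control 2 at 0.43. Deviations from a mean over so few libraries are not independent, so these values cannot exclude pairing. The fit with a replicate block called 1496 genes higher and 1074 lower and changed no member's call. Of 158 tested list genes that are not members, 107 stayed on the same side in every setting that included them and 0 reversed a call. fat-7, with 65 to 505 counts, was the member with the fewest reads. Smaller changes of fat-5 were not detectable at its replicate spread.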

Other observations

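The protein-coding genes next to the members, chosen by position, were read where they were tested. Those beside fat-5, str-77 and cutl-4, were not tested, nor were ZK822.9 beside fat-6 and F10D2.8 beside fat-7. In that order their mean counts were 0.333, 1, 2.83 and 6.5. Beside the fat-1 and fat-2 pair, Y67H2A.7 was at a log2 fold change of -0.01 (adjusted p 0.896, edgeR), while far-6, a fatty acid and retinol binding protein gene, was lower at -0.44 (adjusted p 0.0172, edgeR, and between 0.0509 and 0.0632 without control library 2, control library 3 or caffeine library 3). T13F2.2 beside fat-4 was at 0.04 and was not called, and dct-15 beside fat-3, with a mean of 8.33 counts, was not tested. VZK822L.2 beside fat-6 was lower at -1.46 on a mean of 27.7 counts. F10D2.10 beside fat-7 was at -0.61 with an adjusted p of 0.0585 in edgeR and 0.0494 in DESeq2.

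The genes most like each member were those with the smallest root mean square difference of centred log2 CPM over the 6 libraries, among 9814 genes that averaged 100 counts or more. For fat-3 they were F16F9.4, F44A2.3 and cest-35.1, at 0.11, 0.12 and 0.13. For fat-7 they were valv-1, F33H12.7 and C35B1.4, each at 0.25. For fat-1 they included pck-2, a phosphoenolpyruvate carboxykinase gene, at 0.022. The likest genes were ivns-1 for fat-1 at 0.017, nhr-232 for fat-2 at 0.042, C46G7.2 for fat-4 at 0.022, C23H3.9 for fat-5 at 0.16 and nspc-7 for fat-6 at 0.044. Between members the smallest difference was 0.0503, for fat-1 and fat-2, and the largest was 2.29, for fat-3 and fat-7.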
